A study of Mus musculus with 8 samples.

Results

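The genes described here are 44 mouse genes of the cell cycle and DNA replication, listed by name for what their products do, out of 53655 gene symbols in the count table. The list was drawn up with earlier results of these data known, so comparisons with all genes below are description only. The genes comprise 18 genes of S phase, in which DNA is copied, 24 genes of G2 and mitosis, in which the copies are separated, and Stmn1 and Hmgb2, which many cells also express outside the cycle. Their RNA was measured in tuft cells, rare chemosensory cells of the gut lining, sorted from the small intestine of naïve mice of the genotype Il25-RFP/+;Chat-GFP(Tg+). Every mouse thus carried a red reporter for the cytokine gene Il25 and a transgenic green reporter for Chat, the gene of the enzyme that makes acetylcholine. All sorted cells were CD45-negative, EPCAM-positive and positive for the red reporter. The Chat-pos group held cells with green signal, in 4 libraries, and the Chat-neg group held cells without it, also in 4 libraries. The gate follows reporter protein and not the transcript, and the labels name neither the ages of the mice nor which animals gave each library, so p-values measure the spread between libraries, which may be technical.

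Cells enter the cycle when the kinases of cyclin D and cyclin E release E2F transcription factors from the retinoblastoma protein. E2F factors switch on genes for licensing factors, the MCM helicase and the enzymes that make deoxynucleotides. Later, cyclin A, cyclin B and CDK1 drive mitosis, and in non-dividing cells their genes are held down by the DREAM complex, which binds a promoter element called the CHR. In the intestine, dividing cells sit in the crypts, while tuft cells are in the main non-dividing cells that arise from crypt progenitors.

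Sequencing depth differed between the groups and bears on every value below. Counts in named genes ran from 1757401 to 2541955 in the Chat-pos libraries and from 87642 (Chat-neg 1) to 1176880 in the Chat-neg libraries. Levels are given as CPM, the counts of a gene relative to all counts in named genes of its library, on the usual per-million scale, after TMM scaling. In Chat-neg 1 a single count was worth about 10.4 CPM, and a count of 0 there allows a level of up to 31.1 CPM (3 counts); the same limit is 4.66 CPM or less in the other 7 libraries. The 12 tuft markers were detected in every library, and their summed level was 25270 to 26570 CPM in the Chat-pos and 9675 to 18850 CPM in the Chat-neg libraries. Of the markers of other cells, the 7 enterocyte genes summed to 32370 to 53400 CPM in the Chat-pos and 18920 to 44330 CPM in the Chat-neg libraries, mostly Fabp1. The 7 Paneth cell markers reached 55310 and 30170 CPM in Chat-pos 2 and 3, against 468 to 3197 CPM in the other 6 libraries.

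Promoters of 4 genes are printed because they hold the elements that set the S-phase and mitotic genes apart by sequence, and because values per library are given for their genes below. Each window runs 5′ to 3′ from 250 bases before to 50 bases after the annotated start, from RefSeq on GRCm38.p6. Capitals mark matches on either strand to 3 motifs: an E2F site (TTTCCCGC, TTTGGCGC, TTTCGCGC or TTTGCCGC), the CHR (TTTGAA) and the CCAAT box (CCAAT, or ATTGG on the other strand). Cdca3 (chr6:124829926-124830225, plus strand) and Mki67 (chr7:135716330-135716629, minus strand) are mitotic genes, and Mcm5 (chr8:75109259-75109558, plus strand) and Mcm6 (chr1:128359656-128359955, minus strand) are S-phase genes.
Cdca3: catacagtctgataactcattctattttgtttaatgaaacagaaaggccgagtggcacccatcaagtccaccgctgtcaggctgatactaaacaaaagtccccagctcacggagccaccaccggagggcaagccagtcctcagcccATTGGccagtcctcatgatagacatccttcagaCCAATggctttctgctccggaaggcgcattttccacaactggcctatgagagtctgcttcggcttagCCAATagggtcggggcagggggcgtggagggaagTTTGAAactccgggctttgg
Mki67: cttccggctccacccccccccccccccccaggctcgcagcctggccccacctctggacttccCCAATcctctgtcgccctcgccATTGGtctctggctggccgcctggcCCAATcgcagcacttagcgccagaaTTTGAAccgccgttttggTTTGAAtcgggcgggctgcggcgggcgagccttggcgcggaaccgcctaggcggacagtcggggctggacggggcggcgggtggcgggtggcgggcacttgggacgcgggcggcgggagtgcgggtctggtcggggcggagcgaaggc
Mcm5: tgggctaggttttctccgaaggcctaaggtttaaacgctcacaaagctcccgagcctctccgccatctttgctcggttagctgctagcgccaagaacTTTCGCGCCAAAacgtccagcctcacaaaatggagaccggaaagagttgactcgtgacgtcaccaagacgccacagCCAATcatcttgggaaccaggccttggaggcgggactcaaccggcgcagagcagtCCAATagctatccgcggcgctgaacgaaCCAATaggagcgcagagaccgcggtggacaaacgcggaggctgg
Mcm6: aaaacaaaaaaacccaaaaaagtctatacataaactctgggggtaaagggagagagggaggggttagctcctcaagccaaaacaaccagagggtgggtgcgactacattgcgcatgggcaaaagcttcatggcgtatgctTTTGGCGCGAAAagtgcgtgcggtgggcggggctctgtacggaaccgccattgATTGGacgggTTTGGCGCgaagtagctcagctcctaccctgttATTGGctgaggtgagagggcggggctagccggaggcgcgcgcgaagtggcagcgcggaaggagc

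The Cdca3 window holds 1 CHR and 3 CCAAT boxes with no E2F site, and the Mki67 window holds 2 CHR and 3 CCAAT boxes with no E2F site. The Mcm5 window holds 2 E2F sites, which overlap each other on opposite strands, and 3 CCAAT boxes with no CHR. The Mcm6 window holds 3 E2F sites and 2 CCAAT boxes with no CHR. Promoter windows were found for 36 of the 44 genes, 38 windows in all. Of the S-phase windows, 8 of 17 (47.1%) held an E2F site, against 1 of 20 mitotic windows (5.0%) and 2.26% of all 32851 windows in the table. The CHR was the reverse, in 1 of 17 S-phase windows (5.88%) and 15 of 20 mitotic windows (75.0%), against 17.9% of all windows. The CCAAT box was in 11 of 17 S-phase windows (64.7%) and 18 of 20 mitotic windows (90.0%), against 37.4% of all windows. CHR matches in mitotic windows began at a median of 15 bases before the start site (position -15) and CCAAT boxes at position -78, while E2F sites in S-phase windows began at position -106. Matches to different motifs overlapped at 2 places among these windows. A match describes the letters in the window and was not tested as a binding site.

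**Figure D1:**
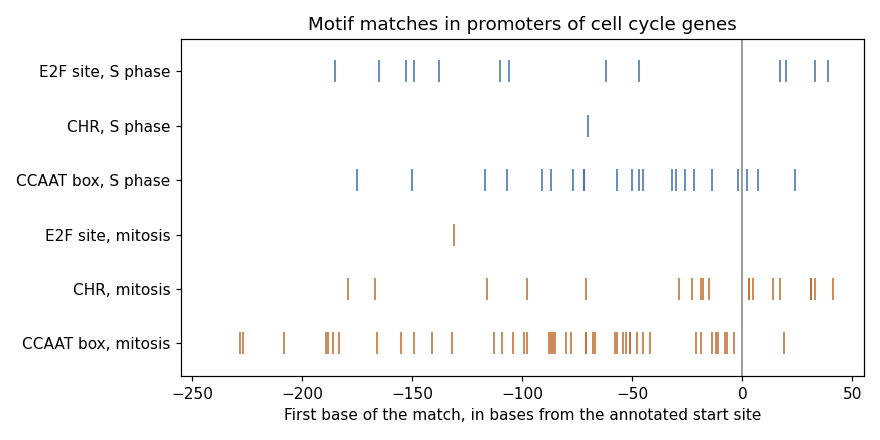
Each tick marks the first base of a match to an E2F site, a CHR or a CCAAT box on either strand, in bases from the annotated start site (x axis, 0 is the start), with 17 S-phase windows in blue and 20 mitotic windows in orange. E2F sites stand almost only in the S-phase row and CHR matches almost only in the mitotic row, where their median position is -15.

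Of the 44 genes, 26 were abundant enough to be tested (11 of S phase, 13 of mitosis, and both Stmn1 and Hmgb2), and 1 was called. Cdca3, which encodes a trigger of entry into mitosis and substrate of the anaphase-promoting complex, fell in Chat-pos, and no member rose. The threshold was an adjusted p under 0.05 by the quasi-likelihood test of edgeR, adjusted after Benjamini and Hochberg over 8919 genes, and 2.87% of all genes tested were called lower and 3.62% higher. The log2 difference (Chat-pos over Chat-neg) was negative for 24 of the 26, with a median of -0.97, against 51.5% of all genes tested and a median of -0.02. Without adjustment, 6 of the 26 had a p under 0.05, all 6 lower in Chat-pos, while 9.88% of all genes tested were lower at that level. In bulk RNA such as this, a smaller share of cycling cells and less of each transcript per cell cannot be told apart.

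The size of the differences rested largely on a single library, Chat-neg 4. Without it 31 members were tested and 0 were called (1.27% of all genes called lower), and 21 differences were negative (67.7%, against 50.3% of all genes). The median was then -0.38 (-0.0034 over all genes), and 1 member was lower at an unadjusted p under 0.05 (3.23%, against 7.41% of all genes). Since a member can pass the filter on low counts through the libraries in which it is high, all 44 were also fitted with no filter. Then 35 of 44 differences were negative (79.5%, against 59.1% of 32856 genes), with a median of -0.63 against -0.34 over all genes, and Birc5 joined Cdca3 as called lower, where 0.435% of all genes were. With no filter and without Chat-neg 4, 22 of 44 were negative (56.3% of all genes), the median was -0.00 against -0.25 over all genes, and 0 were called (0.227% of all genes called lower). The groups are described below library by library.

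**Figure D2:**
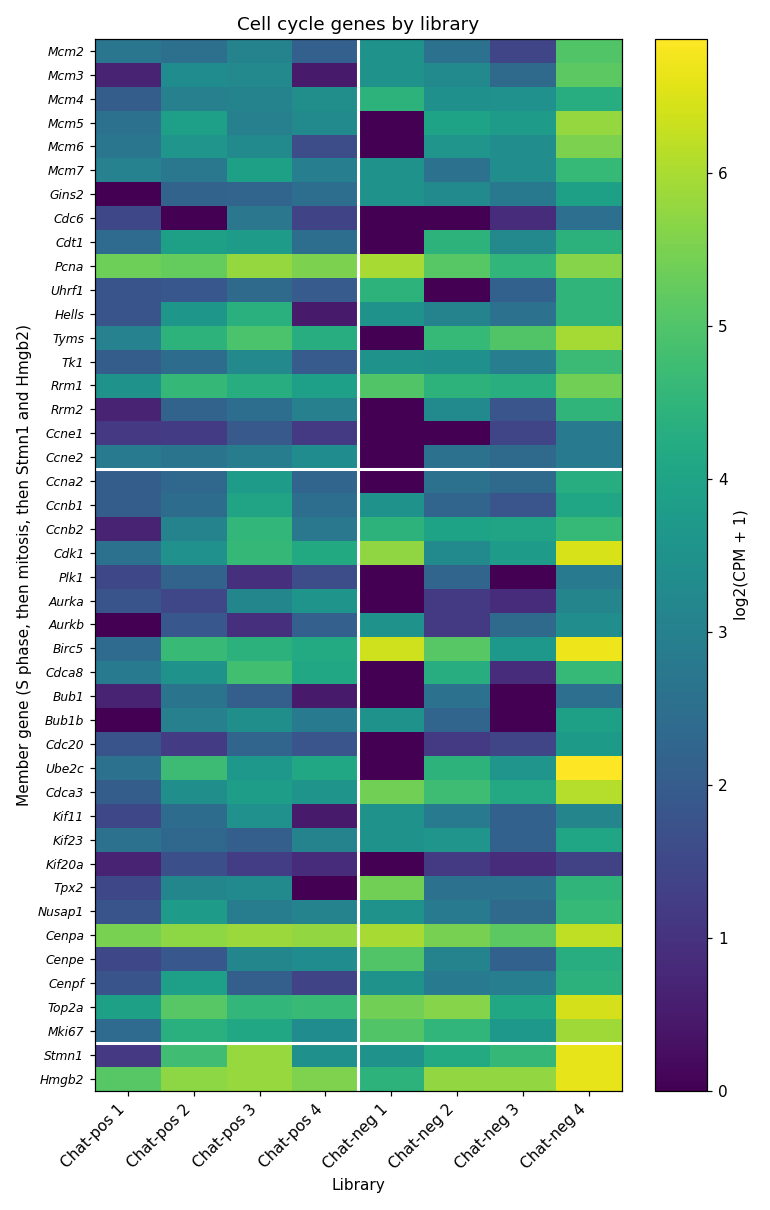
Each row is a member gene (S phase above, mitosis in the middle, Stmn1 and Hmgb2 at the foot) and each column a library, with the 4 Chat-pos libraries to the left of the 4 Chat-neg libraries. Colour gives log2(CPM + 1). The Chat-neg 4 column is bright through most rows, while in the Chat-neg 1 column 16 of 44 genes have no count.

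Among the S-phase genes, levels were low in both groups, and no member passed the test. Per kilobase of exon the highest in Chat-pos was Pcna, the sliding clamp of the DNA polymerases, at 18.4 CPM per kb in Chat-pos and 17.3 CPM per kb in Chat-neg. Pcna had 39.7, 37.4, 54.3 and 45.1 CPM in Chat-pos 1 to 4, against 62.2, 33.3, 21.9 and 48.2 CPM in Chat-neg 1 to 4. The Chat-pos values lay inside the range of the Chat-neg values, and Pcna was the only tested S-phase gene with a positive log2 difference, 0.27 ± 0.29 (SE, adjusted p = 0.655, edgeR).

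The MCM subunits, which form the replicative helicase, are the largest S-phase set here. Mcm5 had 4.89, 13.6, 6.97 and 8.70 CPM in Chat-pos 1 to 4, against 0, 14.8, 12.7 and 54.4 CPM in Chat-neg 1 to 4. Mcm6 had 5.50, 11, 8.82 and 2.07 CPM in Chat-pos 1 to 4, against 0, 11.1, 9.28 and 45.1 CPM in Chat-neg 1 to 4. In both genes Chat-neg 2 and 3 lay close to the upper Chat-pos values, Chat-neg 4 stood above all other libraries and Chat-neg 1 was at 0. The log2 difference was -1.47 ± 0.52 for Mcm5 (SE, adjusted p = 0.0943) and -1.48 ± 0.60 for Mcm6 (adjusted p = 0.159, edgeR), and without Chat-neg 4 it was -0.50 and -0.41. Mcm4 was the only tested S-phase gene whose groups did not overlap. It had 3.05, 7.04, 7.43 and 9.53 CPM in Chat-pos 1 to 4, against 20.7, 9.88, 10.1 and 18.7 CPM in Chat-neg 1 to 4. The gap between Chat-pos 4 and Chat-neg 2 was small beside the spread within groups (log2 difference -0.96 ± 0.51, adjusted p = 0.287, edgeR). Mcm3 (-1.60) and Mcm7 (-0.52) were also negative and not called, and Mcm2, not tested for its low counts, had 31.1 CPM in Chat-neg 4 and 10.4 CPM or less in every other library. Mcm7 shares exons with neighbouring genes, and these counts carry no strand, so its value is uncertain.

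Genes for making deoxynucleotides were likewise highest in Chat-neg 4. Tyms, thymidylate synthase, had 7.33, 20.7, 29.3 and 18.6 CPM in Chat-pos 1 to 4, against 0, 23.5, 31.2 and 60.6 CPM in Chat-neg 1 to 4. Tk1, thymidine kinase, had 3.05, 4.40, 8.36 and 2.90 CPM in Chat-pos 1 to 4, against 10.4, 9.88, 6.75 and 24.9 CPM in Chat-neg 1 to 4. Rrm1, the large subunit of ribonucleotide reductase, had 10.4, 22.9, 18.6 and 13.7 CPM in Chat-pos 1 to 4, against 31.1, 21.0, 19.4 and 42.0 CPM in Chat-neg 1 to 4. Chat-neg 4 stood above all other libraries for all 3, and Chat-neg 1 was above the Chat-pos libraries for Tk1 and Rrm1 on 1 and 3 counts and at 0 for Tyms. The groups overlapped for each, and none was called, with log2 differences of -0.86 ± 0.44 for Tyms (adjusted p = 0.287), -1.47 ± 0.57 for Tk1 (0.124) and -0.74 ± 0.37 for Rrm1 (0.254; edgeR). Tk1 shares exons with Afmid. Rrm2, the small subunit of the same enzyme, was not tested and had 21.8 CPM in Chat-neg 4 and at most 8.64 CPM elsewhere.

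The licensing factor Cdc6, the GINS subunit Gins2 and the cyclin E genes Ccne1 and Ccne2 were too scarce to be tested. Gins2 was the other S-phase gene with groups apart, with 0, 3.52, 3.72 and 4.56 CPM in Chat-pos 1 to 4, against 10.4, 8.64, 5.90 and 14 CPM in Chat-neg 1 to 4. These are 7, 7 and 9 counts in Chat-neg 2 to 4 and 1 in Chat-neg 1, and Gins2 shares exons with Gse1. Ccne1 reached at most 2.79 CPM in the Chat-pos and 6.22 CPM in the Chat-neg libraries. Ccne2, the other cyclin E gene, averaged 6.75 ± 1.65 CPM in the Chat-pos and 3.84 ± 2.69 CPM in the Chat-neg libraries (SD, n = 4 each). Its mean was thus the higher in Chat-pos, with overlapping groups, and it shares exons with Ints8. Cdc6 was at 0 to 5.57 CPM in the Chat-pos and 0 to 4.66 CPM in the Chat-neg libraries. Cdt1, a licensing factor (-0.73), and Hells (-0.35), a chromatin remodeller, were tested and not called, and Uhrf1, which recruits the maintenance DNA methyltransferase, was 20.7 CPM in Chat-neg 1, 21.8 CPM in Chat-neg 4 and at most 4.18 CPM elsewhere.

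**Figure D3:**
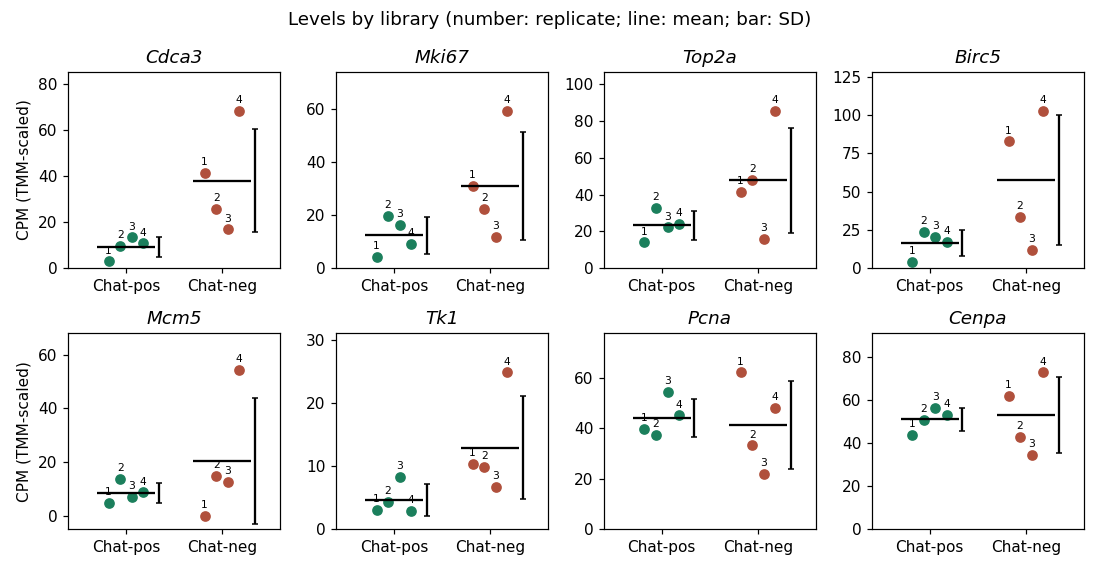
CPM (TMM-scaled, y axis) of 8 member genes in each of the 4 Chat-pos (green) and 4 Chat-neg (red) libraries, with replicate numbers, the group mean as a line and the SD as a bar. Cdca3 is the only gene shown whose groups are apart, Chat-neg 4 is the highest Chat-neg library in all but Pcna, and Pcna and Cenpa have nearly equal group means.

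Among the mitotic genes, Cdca3 was the called gene. It had 3.05, 9.68, 13.5 and 10.8 CPM in Chat-pos 1 to 4, against 41.4, 25.9, 16.9 and 68.4 CPM in Chat-neg 1 to 4. Every Chat-neg library lay above every Chat-pos library, though Chat-neg 3 was close to Chat-pos 3. The log2 difference was -1.97 ± 0.45 (SE, adjusted p = 0.0092, edgeR), and the means were 9.24 ± 4.42 CPM in the Chat-pos and 38.2 ± 22.6 CPM in the Chat-neg libraries (SD, n = 4 each). Without Chat-neg 4 the difference was -1.34 ± 0.50 (adjusted p = 0.135, edgeR), so the call ended while the sign stayed, and without both Chat-neg 1 and 4 it was -1.14 (adjusted p = 0.250, edgeR). The counts behind the Cdca3 levels were 5, 22, 29 and 26 in Chat-pos and 4, 21, 20 and 44 in Chat-neg. Cdca3, Mcm4 and Gins2 were the only members whose groups did not overlap, 3 of 44, all with Chat-pos lower, where 2.3% of the 32856 genes with at least 1 count did so. With Chat-pos higher there were 0 of 44, against 3.05% of those genes. Among genes tested, 2 of 26 members (7.69%) were apart with Chat-pos lower, against 4.72% of 8919 genes. With Chat-pos higher it was 0 of 26, against 9.23%. Without Chat-neg 1 the shares with Chat-pos lower were 7.69% of tested members and 9.45% of all genes tested.

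The genes most used to mark dividing cells were not called. Mki67, which encodes the proliferation marker Ki-67, had 4.28, 19.8, 16.3 and 9.11 CPM in Chat-pos 1 to 4, against 31.1, 22.2, 11.8 and 59.1 CPM in Chat-neg 1 to 4. Top2a, the topoisomerase that untangles replicated DNA, had 14, 33.0, 22.3 and 24 CPM in Chat-pos 1 to 4, against 41.4, 48.2, 16.0 and 85.5 CPM in Chat-neg 1 to 4. In both genes 3 Chat-neg libraries lay above all Chat-pos libraries, and Chat-neg 3 lay within the Chat-pos range. The log2 difference was -1.27 ± 0.50 for Mki67 (adjusted p = 0.151) and -1.03 ± 0.42 for Top2a (adjusted p = 0.172, edgeR). Without Chat-neg 4 these were -0.55 and -0.47.

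Of the kinase and chromosome passenger genes, Cdk1, the kinase that drives mitosis, had 4.89, 10.1, 22.8 and 17.0 CPM in Chat-pos 1 to 4, against 51.8, 8.64, 12.7 and 87.0 CPM in Chat-neg 1 to 4. Birc5, survivin of the chromosomal passenger complex, had 4.28, 23.8, 20.4 and 17.4 CPM in Chat-pos 1 to 4, against 82.9, 33.3, 11.8 and 103 CPM in Chat-neg 1 to 4. Both were high in Chat-neg 1 and 4, while Chat-neg 3 lay inside the Chat-pos range for both and Chat-neg 2 for Cdk1. The log2 difference was -1.39 ± 0.85 for Cdk1 (adjusted p = 0.428) and -1.61 ± 0.78 for Birc5 (adjusted p = 0.311, edgeR). For Birc5 it was -0.82 without Chat-neg 4, and for Cdk1 it was -0.12 without Chat-neg 4 and 0.38 without both Chat-neg 1 and 4. Ube2c, the ubiquitin-conjugating enzyme of the anaphase-promoting complex, had 4.89, 25.1, 11.6 and 16.6 CPM in Chat-pos 1 to 4, against 0, 21.0, 11 and 117 CPM in Chat-neg 1 to 4. Chat-neg 4 alone lay above the Chat-pos range, and the log2 difference of -1.53 ± 0.94 (adjusted p = 0.436, edgeR) was 0.06 without it. Ube2c shares exons with Tnnc2.

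Cenpa and Cdca8 differed less between the groups. Cenpa, the histone H3 variant of centromeres, had 44, 51.0, 56.7 and 53.4 CPM in Chat-pos 1 to 4, against 62.2, 43.2, 34.6 and 73.1 CPM in Chat-neg 1 to 4. The Chat-pos values were close to each other and inside the Chat-neg range, and the log2 difference was -0.00 (adjusted p = 0.9998, edgeR); its sign changed with the scaling, being 0.02 with RLE. Cdca8, borealin of the same passenger complex as Birc5, had 6.11, 10.6, 26.9 and 16.2 CPM in Chat-pos 1 to 4, against 0, 18.5, 0.843 and 23.3 CPM in Chat-neg 1 to 4. Its groups overlapped, with a log2 difference of 0.27 ± 0.74 (adjusted p = 0.888, edgeR), and Cdca8 shares exons with a neighbouring gene.

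The other tested mitotic genes were Ccnb2, a cyclin B gene (-0.97), Kif23, a kinesin of cell division (-0.97), Tpx2, a spindle assembly factor (-1.42), Nusap1, a spindle protein (-0.51), and Cenpe, a kinetochore motor (-1.0). These values are log2 differences, none of them called. The 11 mitotic genes too scarce to test were Ccna2, Ccnb1, Plk1, Aurka, Aurkb, Bub1, Bub1b, Cdc20, Kif11, Kif20a and Cenpf, which include cyclin A and cyclin B1, the polo and aurora kinases and spindle checkpoint genes. Among the 18 members of both phases not tested, mean levels over all libraries ran between 1.08 and 8.64 CPM, against 7.49 to 52.3 CPM among the 26 tested. Aurka averaged 5.72 ± 4.35 CPM in the Chat-pos and 2.46 ± 3.58 CPM in the Chat-neg libraries, and Aurkb averaged 1.72 ± 1.52 CPM in the Chat-pos and 6.28 ± 4.31 CPM in the Chat-neg libraries (SD, n = 4 each). The 2 aurora kinases thus had means in opposite order, on at most 6 counts in any Chat-neg library. Of all 44 members, 13 share exon sequence with another annotated gene and are uncertain for that reason.

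Stmn1 and Hmgb2 were also highest in Chat-neg 4. Stmn1, stathmin, which destabilises microtubules, had 1.22, 26.4, 55.7 and 9.94 CPM in Chat-pos 1 to 4, against 10.4, 17.3, 22.8 and 97.9 CPM in Chat-neg 1 to 4. Hmgb2, a chromatin protein abundant in dividing cells, had 33.0, 51.0, 55.3 and 46.0 CPM in Chat-pos 1 to 4, against 20.7, 53.1, 53.1 and 97.9 CPM in Chat-neg 1 to 4. The groups overlapped for both, with only Chat-neg 4 above the Chat-pos range. The log2 difference was -0.81 ± 1.07 for Stmn1 (adjusted p = 0.742) and -0.45 ± 0.27 for Hmgb2 (adjusted p = 0.361, edgeR), and without Chat-neg 4 that of Stmn1 was 0.28.

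**Figure D4:**
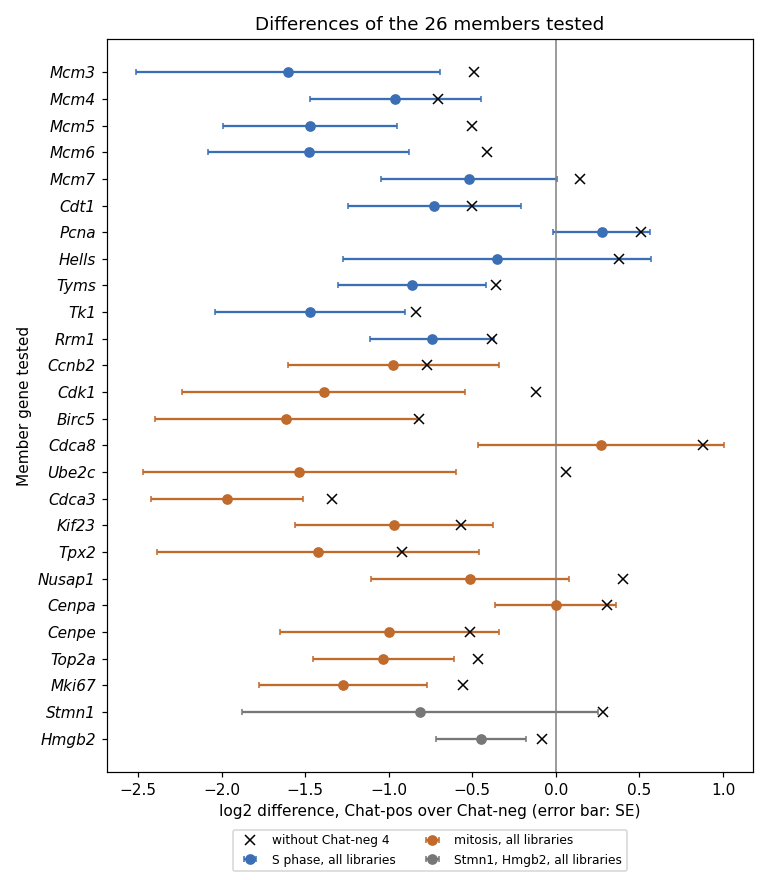
Log2 difference (Chat-pos over Chat-neg, x axis) of the 26 members tested, with the SE as a bar, for S-phase genes in blue, mitotic genes in orange, and Stmn1 and Hmgb2 in grey, and crosses for the same fit without Chat-neg 4. Nearly all circles lie left of 0, with medians of -0.86 for S phase and -1.03 for mitosis, and every cross lies to the right of its circle.

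S-phase and mitotic genes gave close values side by side, and the difference between them was not tested. Of the tested genes, 10 of 11 S-phase and 12 of 13 mitotic members had a negative log2 difference (51.5% of all genes tested). Their medians were -0.86 and -1.03, against -0.02. In each phase 3 were lower at an unadjusted p under 0.05 (27.3% and 23.1%, against 9.88%, edgeR). With no filter, 15 of 18 and 18 of 24 were negative (59.1% of all genes), with medians of -0.70 and -0.69 against -0.34. With no filter and without Chat-neg 4, 11 of 18 and 11 of 24 were negative (56.3% of all genes). The medians were then -0.14 and 0.15, against -0.245 over all genes. The 18 S-phase genes together had 106, 179, 223 and 142 CPM in Chat-pos 1 to 4, against 197, 193, 159 and 499 CPM in Chat-neg 1 to 4. The 24 mitotic genes together had 115, 268, 309 and 231 CPM in Chat-pos 1 to 4, against 477, 304, 171 and 836 CPM in Chat-neg 1 to 4. For both sums Chat-neg 2 and 3 lay inside the Chat-pos range and Chat-neg 4 stood far above it, while Chat-neg 1 was inside it for S phase and above it for mitosis. The sums averaged 162.7 ± 50.1 CPM in the Chat-pos and 261.7 ± 159 CPM in the Chat-neg libraries for S phase, and 230.7 ± 83.2 CPM in the Chat-pos and 446.9 ± 288 CPM in the Chat-neg libraries for mitosis (SD, n = 4 each). Both differences of means were smaller than the SD of the Chat-neg libraries. On the log2 scale the ratios were -0.69 and -0.95, and they were -0.17 and -0.46 without Chat-neg 4. Without both Chat-neg 1 and 4 they were -0.11 and -0.04.

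The balance between the phases was read from the counts within each library, where scaling has no part. Mitotic genes held 52.1%, 60.0%, 58.0% and 61.8% of the S-phase and mitotic counts in Chat-pos 1 to 4, against 70.8%, 61.2%, 51.9% and 62.6% in Chat-neg 1 to 4. The share in Chat-neg 4 (95% exact interval 59.3% to 65.9%) was close to that in Chat-pos 4, and Chat-neg 2 lay among the Chat-pos libraries. Chat-neg 1 was the highest, but its interval, 58.2% to 81.4% on 65 counts, takes in 2 of the 4 Chat-pos values.

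**Figure D5:**
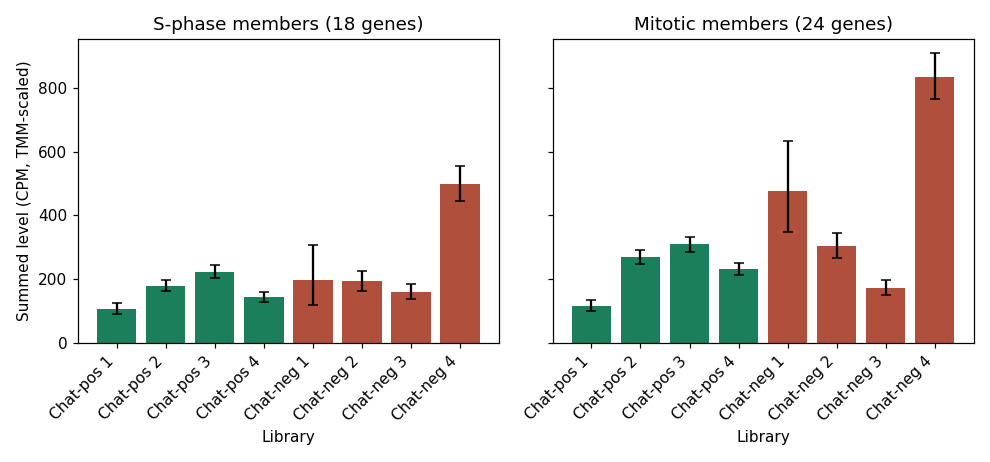
Summed level in CPM (y axis, from 0) of the 18 S-phase genes (left) and the 24 mitotic genes (right) in each library, with Chat-pos in green and Chat-neg in red, and bars for the 95% counting interval. Chat-neg 4 is the tallest in both panels at 499 and 836 CPM, and Chat-pos 1 is the lowest at 106 and 115 CPM.

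Of the Chat-neg libraries, Chat-neg 4 carried the largest part of the signal. It held 47.7% of the S-phase and 46.8% of the mitotic CPM summed over the 4 Chat-neg libraries. Its sum was 3.07 times the Chat-pos mean for S phase and 3.62 times for mitosis. Leaving aside the shallow Chat-neg 1, Chat-neg 4 was the highest of 7 libraries for 35 of 44 members (79.5%), 14 of 18 in S phase and 19 of 24 in mitosis, where it was the highest for 18.7% of all genes tested. All 44 members were higher in Chat-neg 4 than the mean of Chat-neg 2 and 3, by 1.36 to 12.9 times with a median of 3.44. Of the members, 33 (75.0%) reached 2 times, against 5.92% of all genes tested, whose median ratio was 0.989. These sets are unlike, since 18 of the 44 members were too scarce to be tested and their ratios rest on few counts. The ratio of 12.9 was that of Uhrf1, not tested, on 0, 4 and 14 counts in Chat-neg 2 to 4. Among the 26 members tested, Chat-neg 4 was the highest of the 7 libraries for 23 (88.5%). The library was singled out after its values were seen.

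Chat-neg 1 was above the Chat-pos libraries in its mitotic sum and among them in its S-phase sum. Its 24 mitotic genes gave 46 counts, 477 CPM with a 95% counting interval of 349 to 636 CPM, which lies above all 4 Chat-pos sums. Its 18 S-phase genes gave 19 counts, 197 CPM with an interval of 118.5 to 307 CPM, which spans 3 of the 4 Chat-pos sums. This library also had the highest level of 1437 olfactory and vomeronasal receptor genes, taken as a measure of background on the untested assumption that these cells do not express them. Per receptor gene these averaged 0.215, 0.123, 0.119 and 0.110 CPM in Chat-pos 1 to 4, against 2.60, 0.529, 0.266 and 0.401 CPM in Chat-neg 1 to 4. Taking off this background per kilobase of exon left mitotic sums of 108, 264, 305 and 227 CPM in Chat-pos 1 to 4, against 389, 286, 162 and 823 CPM in Chat-neg 1 to 4. By these values Chat-neg 1 and 4 still stood above the Chat-pos libraries, but no counting interval was computed after the subtraction. The S-phase sums left were 101, 176, 221 and 140 CPM in Chat-pos 1 to 4, against 137, 181, 152 and 490 CPM in Chat-neg 1 to 4. There only Chat-neg 4 stood above the Chat-pos libraries.

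At the low end, Chat-pos 1 was the lowest of the same 7 libraries for 22 of 44 members (50%). They include 7 of 18 in S phase and 13 of 24 in mitosis, with Bub1b, a tie at 0 counts with Chat-neg 3. Of the 26 members tested it was the lowest for 16 (61.5%), against 15.5% of all genes tested. Within the Chat-pos group the sum over all 44 genes was 256 CPM in Chat-pos 1, 524 in Chat-pos 2, 643 in Chat-pos 3 and 429 in Chat-pos 4. The Chat-pos libraries thus spread by over 2 times among themselves.

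Markers of crypt cells were high in some of the libraries with high cell cycle sums and low in others, and their part in the result was not tested. The 8 crypt stem and progenitor markers summed to 192, 684, 1155 and 147.5 CPM in Chat-pos 1 to 4, against 145, 344.5, 132 and 1062 CPM in Chat-neg 1 to 4. The high libraries were Chat-pos 2 and 3 and Chat-neg 4, largely through Olfm4, a crypt stem cell marker, at 20.2, 414, 898 and 8.70 CPM in Chat-pos 1 to 4, against 41.4, 137, 16.9 and 699 CPM in Chat-neg 1 to 4. Lgr5, the receptor that defines crypt base stem cells, was 45.6 to 68.2 CPM in the Chat-pos and 35.4 to 60.5 CPM in the Chat-neg libraries, and at 37.3 CPM it was not raised in Chat-neg 4. Of the other crypt markers, Slc12a2, Smoc2, Axin2 and Rgmb were highest in Chat-neg 4, reaching 234.7, 32.6, 18.7 and 20.2 CPM there. The next values, in the same order, were 145.2 (Chat-pos 2), 20.4 (Chat-pos 3), 11.1 (Chat-neg 2) and 14.5 CPM (Chat-pos 2). Ascl2 and Igfbp4 were not highest in Chat-neg 4, with 15.5 and 3.11 CPM there. Chat-neg 1, with the higher mitotic sum after Chat-neg 4, had a crypt marker sum among the lowest. Of these 8 markers, 4 had no count in Chat-neg 1 and 1 had none in Chat-pos 4. Chat-pos 2 and 3, the libraries rich in Paneth markers, had the higher cell cycle sums of their own group. Leaving both out thus takes away the higher Chat-pos sums while Chat-neg 4 stays in. Then 32 members were tested and 3 fell (Cdca3, Mcm3 and Mki67), where 0.952% of all genes tested fell. The median log2 difference was -1.57, against 0.05 over all genes. Groups were apart with Chat-pos lower for 13 of 44 members, against 4.26% of genes.

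Of the 7 enteroendocrine markers, Chga, Chgb, Neurod1 and Tph1 were highest in Chat-neg 4, while Cck, Gip and Sct were not. Chgb, a granule protein, was 334 CPM there and at most 2.44 CPM in Chat-pos and 8.64 CPM in the other Chat-neg libraries. Neurod1, an enteroendocrine transcription factor, was 26.4 CPM there and at most 2.32 CPM in any other library, and Tph1, the enzyme of serotonin synthesis in enterochromaffin cells, was 42.0 CPM there and at most 4.94 CPM elsewhere. Cck and Gip, hormone genes, had no count in Chat-neg 4, and Sct, the secretin gene, was 939 CPM there, below all 4 Chat-pos libraries (1186 to 1856 CPM). The 7 markers together ran from 1195 to 1875 CPM in Chat-pos and from 508 to 1362 CPM in Chat-neg, mostly Sct, which every library expressed. The 8 T cell and NK cell markers, which the CD45 gate should remove, summed to 9.16, 288, 10.2 and 7.87 CPM in Chat-pos 1 to 4. In Chat-neg 1 to 4 they summed to 207, 290, 348 and 165 CPM. Only Chat-pos 2 reached the Chat-neg range, and Chat-neg 4 had the lowest Chat-neg sum. The 7 goblet markers were 301.5 to 1543 CPM in the Chat-pos and 456 to 5398 CPM in the Chat-neg libraries, highest in Chat-neg 3, the Chat-neg library with the lowest cell cycle sum. B cell and plasma cell markers reached at most 20.7 CPM, and macrophage and dendritic cell markers ran from 6.11 to 47.2 CPM in Chat-pos and from 14.8 to 31.1 CPM in Chat-neg.

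Another 120 genes of the same pathway, listed by function and also with earlier results known, gave few calls. Of these, 64 were tested, 2 rose in Chat-pos and 0 fell (edgeR), where 3.62% of all genes tested rose and 2.87% fell. Without adjustment, 14 (21.9%) were lower and 5 (7.81%) higher at a p under 0.05, against 9.88% and 10.9% of all genes tested. With DESeq2, which called 2.68% of all genes lower, and with limma-voom, which called 4.51%, 1 fell, Dnmt1. The median log2 difference of the 64 was -0.20. None of the 26 tested S-phase genes, 1 of 17 mitotic genes and 1 of 21 regulators was called. Without Chat-neg 4, 73 of the 120 were tested, with a median log2 difference of -0.02 (edgeR). At an unadjusted p under 0.05, 3 (4.11%) were then lower, against 7.41% of all genes. At the same level 8 were higher, against 936 of all 9752 genes.

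The called genes were an activator and an inhibitor of cyclin-dependent kinases. Cdc25b, the phosphatase that activates CDK1 at entry to mitosis, had 31.8, 75.2, 34.8 and 43.5 CPM in Chat-pos 1 to 4, against 0, 16.1, 16.0 and 20.2 CPM in Chat-neg 1 to 4. Every Chat-pos library was above every Chat-neg library, and Cdc25b rose by 1.5 on the log2 scale, ± 0.35 (SE, adjusted p = 0.0083, edgeR). The call was lost without Chat-pos 2 (adjusted p = 0.0569, edgeR) and without both Chat-pos 2 and 3 (adjusted p = 0.0669, edgeR). Cdkn1c, the CDK inhibitor p57, had 440, 335, 335 and 269 CPM in Chat-pos 1 to 4, against 135, 182, 190 and 182 CPM in Chat-neg 1 to 4. The groups did not overlap here either, and Cdkn1c rose by 0.93 ± 0.21 (SE, adjusted p = 0.0056, edgeR), a call kept under every alternative and without any single library. Each shares exons with another annotated gene, Spef1 for Cdc25b and Gm44732 for Cdkn1c.

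Of the other S-phase genes of the pathway, those with the smallest p-values were all lower in Chat-pos and not called. Dnmt1, the maintenance DNA methyltransferase, had 9.16, 11.9, 17.6 and 9.94 CPM in Chat-pos 1 to 4, against 31.1, 32.1, 17.7 and 32.6 CPM in Chat-neg 1 to 4. The groups touched at Chat-pos 3 and Chat-neg 3, and Chat-neg 1, 2 and 4 were close to each other (log2 difference -1.19 ± 0.38, adjusted p = 0.0567, edgeR). Rpa3, a subunit of the single-strand binding protein, had 17.1, 20.7, 33.9 and 23.6 CPM in Chat-pos 1 to 4, against 31.1, 37.0, 32.0 and 63.7 CPM in Chat-neg 1 to 4. Pold1, the catalytic subunit of DNA polymerase delta, had 10.4, 8.36, 6.97 and 8.70 CPM in Chat-pos 1 to 4, against 51.8, 21.0, 7.59 and 21.8 CPM in Chat-neg 1 to 4. Both overlapped between groups, at -0.84 ± 0.30 for Rpa3 (adjusted p = 0.0929) and -1.20 ± 0.48 for Pold1 (adjusted p = 0.142, edgeR).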

How the data were processed

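Small-intestinal epithelial cells were released with DTT and EDTA, stained, sorted into SMARTer lysis reagents, amplified as cDNA and made into Nextera XT libraries read as single reads, per the labels' protocols. No strand and no molecular identifiers are described, so counting intervals cover counting error only. The deposited values are raw counts per gene symbol in 1 table, with GRCm38 as the build per the submitters' processing notes; no aligner or counter and no annotation version is named in the sources used here. Of 53806 rows, 36 had no name and held 58.6% to 64.6% of counts in Chat-pos and 67.8% to 88.4% in Chat-neg; they were left out. Counts of 229 rows sharing 114 symbols were summed.

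Groups came from the labelled cell population. Counts were fitted with edgeR 4.0.16 (R 4.3.3): TMM, filterByExpr, a robust quasi-likelihood fit on group alone, and Benjamini-Hochberg adjustment over all genes tested at 0.05, tested on simulated data. SEs are the log2 difference over the root of its F statistic. The common biological coefficient of variation was 28.1%, and all pairs of replicates differed beyond counting noise. Sums have exact Poisson 95% intervals. Exons came from GENCODE M21. Promoter windows were matched by symbol.

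The members and lists were chosen with earlier results of these data known. Genes given per library were called members, the 5 of highest level and the 2 of smallest p in each phase, Mki67, Top2a, Pcna, Stmn1, Hmgb2, and, of the pathway list, called genes or else the 3 of smallest p per class; Mcm4, Gins2 and Cdca8 were added after their values were seen. Alternatives were other scalings, DESeq2 1.42.0, limma-voom (limma 3.58.1), no filter, a minimum of 5 CPM in 4 libraries, a replicate block, CPM over all rows, background subtraction, Stmn1 and Hmgb2 counted as mitotic, and leaving out libraries.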

Additional observations from a re-analysis of the deposited data

Results flagged for a closer look

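Within groups of 4 libraries, the highest or lowest value was set against the others by its gap over the range of the group, with the usual 95% limit for such gaps. Of 44 groups checked, 4 held such a value, all 4 in Chat-neg. The 1 in 20 that such a limit allows by chance is no benchmark here. Genes were partly picked by their values in these data, and the S-phase sum is made of member genes. Stmn1 was 97.9 CPM in Chat-neg 4, against 22.8 CPM or less in the other Chat-neg libraries. The S-phase sum was 499.0 CPM in Chat-neg 4, against 197 CPM or less in the others. Dnmt1 was low in Chat-neg 3, at 17.7 CPM, against 31.1 to 32.6 CPM in the others. Cdkn1c was low in Chat-neg 1, at 134.7 CPM on 13 counts, against 181.5 to 189.8 CPM in the others.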

How the results depend on the processing

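Over all genes, 323 were higher and 256 lower in Chat-pos. Total count scaling gave 225 and 380 and moved the median log2 difference of all genes to -0.14 from -0.02. The lower count was 143 with no filter, 402 with limma-voom, 86 without the Paneth-rich Chat-pos 2 and 3, and 148 without Chat-neg 1 and 4. With no filter and without Chat-neg 4 the counts were 180 higher and 72 lower. Leaving out 1 library at a time gave 138 to 360 higher and 110 to 309 lower. Members called lower were 1 (2.87% of all genes tested were), but 2 with no filter (2 mitotic, 0.435% of all genes). There were 3 without the Paneth-rich libraries (1 S-phase, 2 mitotic, 0.952% of all genes). There were 0 without Chat-neg 1 and 4 (0 mitotic) or with no filter and without Chat-neg 4 (0 mitotic, 0.227% of all genes). Leaving out 1 library at a time gave 0 (Chat-neg 4) to 4 (Chat-neg 3) members, all mitotic. Without Chat-neg 3, 35 members were tested, and 163 of all 9834 genes tested were called lower. The other pathway genes gave 1 higher without the Paneth-rich libraries and 1 to 3 leaving out 1 library. They gave 1 lower with upper-quartile or total count scaling, no filter, DESeq2, limma-voom, or without Chat-neg 1 and 4, 2 without the Paneth-rich libraries, and 0 to 2 leaving out 1 library. Members with groups apart and Chat-pos lower were 3, but 1 as CPM over all rows (0.883% of all genes, against 2.3%), 13 without the Paneth-rich libraries (4.26%), and 3 to 8 leaving out 1 library (2.83% to 5.08%, and 4.3% where 8 were apart). The mitotic log2 ratio of means was -0.042 without Chat-neg 1 and 4, and -1.22 to -0.46 leaving out 1 library (S phase -0.88 to -0.17). As CPM over all rows the ratios were -0.24 for S phase and -0.42 for mitosis. The cause of these changes was not tested. The alternatives without Chat-neg 1 and 4, without Chat-neg 4 and the filter together, and the background per kilobase were chosen after the data were seen; the planned background subtraction rounded to 0 counts per gene.

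Of the 26 members tested, 10 turned sign under at least 1 alternative, none of them a called gene. Without Chat-neg 4, Mcm7 was 0.14, Hells 0.38 and Nusap1 0.40, and Cdca8 and Cenpe turned under other alternatives; the other 5 follow. Cenpa, at -0.00, was 0.017 with RLE, 0.21 with no filter, 0.022 with the 5 CPM filter, 0.0070 with DESeq2, 0.15 with limma-voom, 0.049 with the replicate block, and 0.033 without the Paneth-rich libraries. Leaving out 1 library at a time gave -0.19 to 0.30 for Cenpa (positive without Chat-pos 1, Chat-pos 2, Chat-neg 1 or Chat-neg 4), -1.94 to 0.060 for Ube2c and -1.66 to 0.28 for Stmn1, each highest without Chat-neg 4. Without Chat-neg 1 and 4, Cenpa was 0.44, Cdk1 was 0.38 and Stmn1 was 0.24. With no filter and without Chat-neg 4, Cenpa was 0.48, Cdk1 0.074, Ube2c 0.23, Stmn1 0.45 and Hmgb2 0.10.

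Libraries with the same replicate number were not shown to be paired: correlations of their deviations from group means were 0.05, 0.03, -0.02 and -0.01. With the number as a replicate block, 290 genes were higher and 230 lower, and 1 member was lower (Cdca3, -1.78, adjusted p = 0.0218, edgeR). Depth limits these values: in Chat-neg 1, with 68 counts over the 44 genes, 28 were detected.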
